A study of Homo sapiens with 6 samples.

Results

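The subunits of RNA polymerases I, II and III were examined in the polysomal RNA of K562 cells that lack or carry RNH1, the inhibitor of pancreatic-type ribonucleases. The members were all rows of the deposited gene table whose symbol is POLR1, POLR2 or POLR3 followed by a subunit letter, with pseudogenes left out, which gave 34 of 60664 genes. They carry 33 symbols, because POLR2J3 stands on 2 rows. K562 is a human erythroleukemia cell line, and the labels name its source as bone marrow and its cell type as lymphoblast. The groups were 3 RNH1 KO samples, in which RNH1 had been disrupted with CRISPR/Cas9, and 3 RNH1 WT samples, all grown in the same medium and all treated with cycloheximide before the polysomes were isolated on sucrose gradients. The study calls the samples of a group independent replicates, but the sources used here do not say whether the KO samples came from 1 clone or from several, or whether the samples were separate cultures, and the p-values therefore cover the variation among these 6 samples, part of which may be technical.

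RNA polymerase I transcribes the large ribosomal RNA precursor, RNA polymerase II transcribes mRNAs and many noncoding RNAs, and RNA polymerase III transcribes tRNAs, 5S ribosomal RNA and other small RNAs. In each enzyme the largest and the second-largest subunit together form the active center, and the smaller subunits form an assembly platform, a stalk and peripheral modules around it. Some small subunits are built into all 3 enzymes and others into polymerases I and III only, so that 1 transcript can serve several enzymes. K562 cells proliferate rapidly and use all 3 enzymes, and the level of a transcript in polysomal RNA reflects both how much of it a cell holds and how much of it is loaded with ribosomes, which polysomal RNA alone cannot tell apart. The study reports reduced polysome levels in K562 cells that lack RNH1. Scaled read counts are relative to the other genes of the same sample and do not carry such a change. Higher or lower below therefore does not mean more or less polysomal transcript per cell.

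Reads in genes numbered 34908202 to 46256928 per sample, and subunit transcripts took 0.316, 0.332 and 0.325% of them in KO samples 1, 2 and 3, against 0.293, 0.286 and 0.277% in WT samples 1, 2 and 3. On the deposited scaling their summed level was 113224, 118194 and 125610 normalized counts in the KO samples, against 141314, 127679 and 124812 in the WT samples, so the sum had the opposite direction to the share of reads, and its groups overlapped. RNH1 itself had 1058, 1144 and 997 normalized counts in the KO samples, against 4566, 2857 and 1865 in the WT samples (log2 fold change -1.44, adjusted p = 0.000338), and no KO sample reached a WT sample. Of 11 K562 marker genes, 10 had a mean of at least 10 and HBE1 was at 0, and their summed level was 93306 to 105156 in KO samples, against 127913 to 132478 in WT samples. Of 19 markers of lymphoid, myeloid, epithelial and fibroblast cells, 8 reached a mean of 10 and LUM, CD8A, MS4A1 and KRT5 were at 0, with a sum of 15512 to 19005 in KO samples, against 13017 to 17613 in WT samples, most of it from KRT8 and EPCAM. The part of these markers in the results was not tested. Among the members, WT samples spread more widely than KO samples: the coefficient of variation was larger in WT for 31 of the 34 members, with a median of 8.92% in KO and 21.7% in WT. No such share over all genes stands beside it, so it may be a trait of the libraries rather than of the subunits.

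The subunit transcripts moved in both directions. Of the 34 members, all of which reached the minimum mean of 10 normalized counts, 14 were lower in KO cells (background 24.1% of the 16652 genes tested), 5 were higher (background 24.1%) and 15 did not pass an adjusted p of 0.1 in limma, a linear model fitted across all genes. The median of their log2 fold changes, KO over WT throughout, was -0.35, beside 0.03 for all genes tested. All 3 KO values lay below all 3 WT values for 16 members (background 25.5%) and above them for 8 (background 25.6%). On the recovered reads, edgeR called 15 members lower (background 25.8%) and 4 higher (background 22.5%), and DESeq2 15 (background 25.3%) and 4 (background 22.8%). With library totals in place of the deposited size factors, 11 were lower (background 14.5%) and 10 higher (background 39.7%). Without the 4 rows of POLR2J copies described further on, 30 genes remained, of which 14 were lower and 2 higher, with a median of -0.41.

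**Figure D1:**
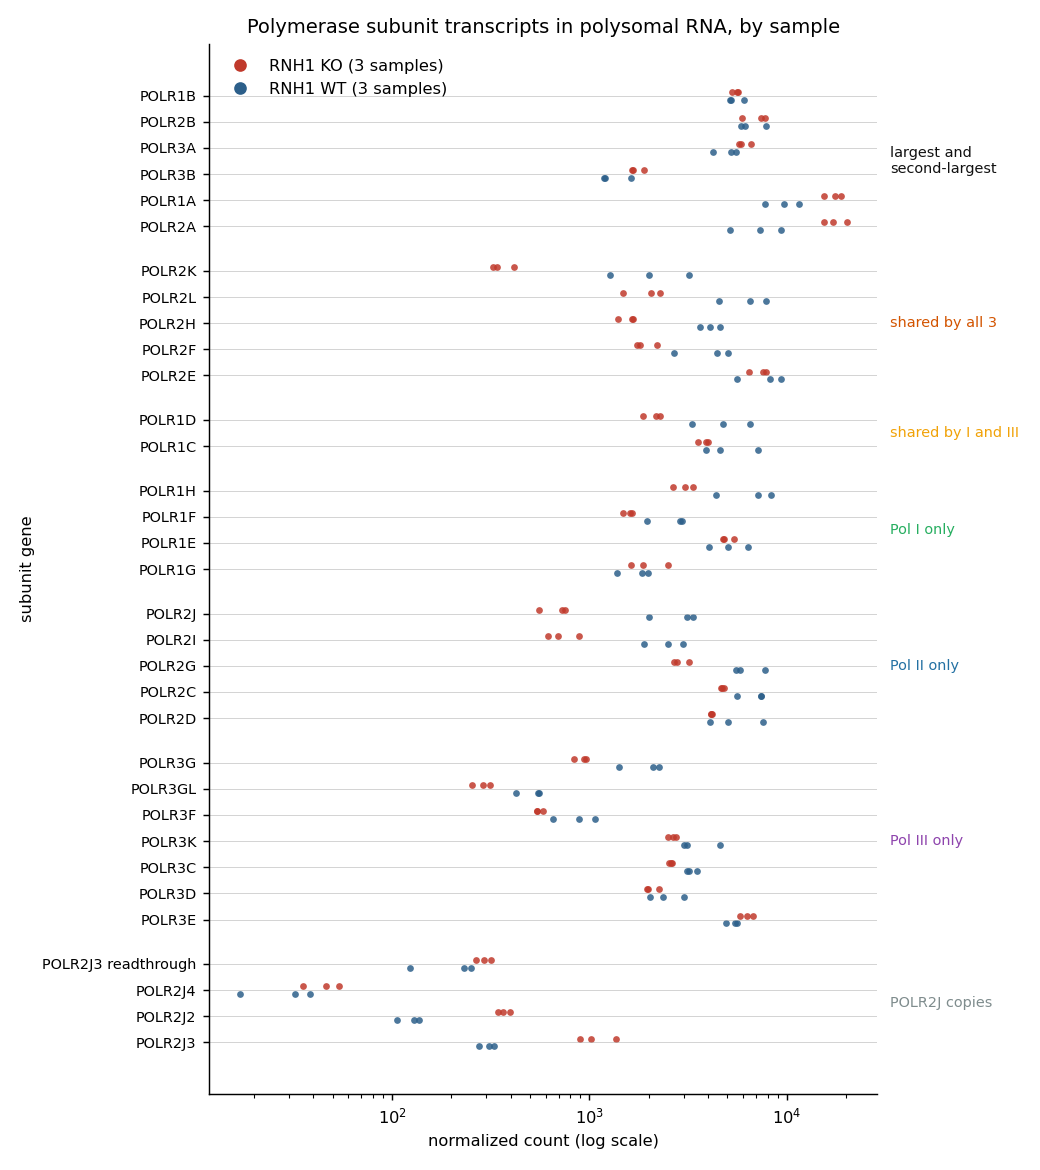
Normalized count (log axis) of 33 subunit transcripts in each of 3 RNH1 KO samples (red, upper point row) and 3 RNH1 WT samples (blue, lower point row), grouped by the place of the subunit in the enzymes. The KO points of POLR2A lie between 15476 and 20149, above the WT points, and those of POLR2K lie between 323 and 416, below the WT points.

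The 6 largest and second-largest subunits form the catalytic core. Of these, 2 were higher in KO cells and 4 were not called, with a median log2 fold change of 0.34. The background was 24.1% of all genes tested and 45.1% of protein-coding genes with a coding sequence of 2000 nt or more, as all 6 have. The median log2 fold change of those protein-coding genes was 0.41. In limma on the deposited scaling 0 were lower (background 24.1% of all genes tested, and 7.21% with a coding sequence of 2000 nt or more). In edgeR and DESeq2, which scale the recovered reads on their own, 0 were lower (background 25.8% and 25.3%). Also, 0 had a lower value in limma with an unadjusted p under 0.05. POLR1B, however, was called lower once the trend on coding length was removed, as given further on. POLR2A, the largest subunit of polymerase II, which carries the heptad repeats of the C-terminal domain, lies on GRCh38 chromosome 17, 7484366 to 7514616, plus strand (ENSG00000181222), and its transcript of 6312 nt has 30 exons. It had 15476, 17218 and 20149 normalized counts in KO samples 1, 2 and 3, against 9323, 7338 and 5172 in WT samples 1, 2 and 3. Every KO sample was above every WT sample, and POLR2A was 2.42-fold higher (log2 fold change 1.31, SE 0.23, adjusted p = 0.000355). POLR1A, the largest subunit of polymerase I (GRCh38 chromosome 2, 86020216 to 86106155, minus strand, ENSG00000068654), had 15509.9, 17505 and 18775 normalized counts in the KO samples, against 9693, 11545 and 7746 in the WT samples. Here too the groups were apart, and POLR1A was 1.79-fold higher (log2 fold change 0.85, SE 0.21, adjusted p = 0.00474).

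The partners of both genes in the active center did not follow them. POLR2B, the second-largest subunit of polymerase II, had 7409, 5942 and 7765 normalized counts in KO samples, against 5830.5, 7838 and 6139 in WT samples, and the groups overlapped (log2 fold change 0.09, 95% interval -0.34 to 0.53). POLR1B, the second-largest subunit of polymerase I, had 5577, 5253 and 5632 in KO samples, against 5153, 6101 and 5239 in WT samples. Its fold change was 0.00 on the log2 scale (95% interval -0.40 to 0.40), with WT samples 1 and 3 below the KO samples and WT sample 2 above them, and its sign turned under TMM scaling. Per kilobase of transcript, the ratio of POLR2A to POLR2B was 1.25, 1.74 and 1.56 in the KO samples, against 0.959, 0.561 and 0.505 in the WT samples. The ratio of POLR1A to POLR1B was 1.68, 2.01 and 2.01 in the KO samples, against 1.13, 1.14 and 0.892 in the WT samples. In both pairs each KO ratio was above each WT ratio, so the ratio was higher in KO samples for both enzymes.

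The large pair of polymerase III moved less. POLR3A, its largest subunit, had 5726, 5835 and 6627 normalized counts in KO samples, against 5506, 5191 and 4237 in WT samples. POLR3B, the second-largest, had 1662, 1652 and 1899 in KO samples, against 1198, 1627 and 1187 in WT samples. In both genes the lowest KO sample was above the highest WT sample, by a small margin, and neither passed the test (POLR3A log2 fold change 0.29, 95% interval -0.13 to 0.71, and POLR3B 0.39, -0.03 to 0.81). Both were called higher under upper-quartile scaling (adjusted p = 0.0898 for POLR3A and 0.0398 for POLR3B) and under library total scaling (0.0174 and 0.0079), which put the median of all genes at 0.17 and 0.35 log2 units. Per kilobase, the ratio of POLR3A to POLR3B was 2.18, 2.24 and 2.21 in KO samples, against 2.91, 2.02 and 2.26 in WT samples, and these values overlapped.

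**Figure D2:**
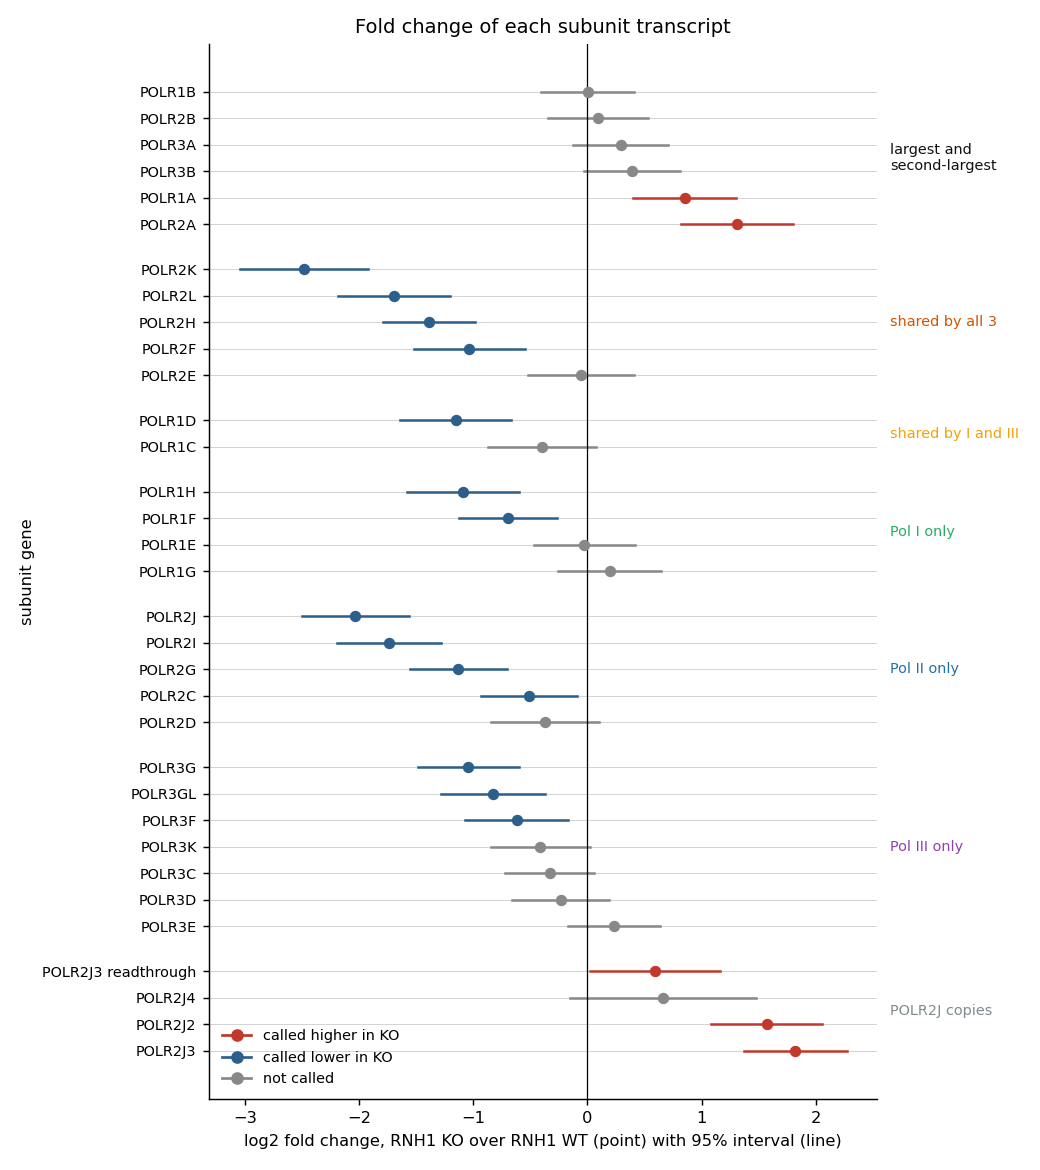
Log2 fold change of RNH1 KO over RNH1 WT for 33 subunit transcripts (points) with their 95% intervals from limma (lines), grouped by class; red marks calls higher in KO, blue calls lower in KO and gray members not called. The large subunits lie at 0.00 to 1.31, and 4 of the 5 subunits shared by all polymerases lie between -2.48 and -1.04.

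Of the 5 subunits that all 3 enzymes share, 4 were lower in KO cells and POLR2E was not called, with a median log2 fold change of -1.39. The background was 24.1% of all genes tested and 70.3% of protein-coding genes with a coding sequence under 500 nt, as these 4 have. POLR2K, a small zinc-binding subunit (ENSG00000147669), had 416, 323 and 341 normalized counts in KO samples 1, 2 and 3, against 2012, 1265 and 3180.1 in WT samples 1, 2 and 3. It was the member with the largest fall, 5.98-fold lower in KO cells (log2 fold change -2.48, SE 0.27, adjusted p = 2.47e-06), and its coding sequence of 174 nt was the shortest among the members. POLR2L, another zinc-binding subunit (GRCh38 chromosome 11, 837356 to 842529, minus strand, ENSG00000177700), had 1474, 2269.8 and 2047 in KO samples, against 7841, 4539 and 6522 in WT samples. The highest KO sample was still below the lowest WT sample, and POLR2L was 3.26-fold lower (log2 fold change -1.69, SE 0.23, adjusted p = 3.09e-05).

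POLR2H (ENSG00000163882) had 1636, 1656 and 1402 normalized counts in KO samples, against 4064, 3646 and 4604 in WT samples, which is 2.62-fold lower in KO (log2 fold change -1.39, SE 0.19, adjusted p = 3.19e-05). POLR2F (ENSG00000100142) had 1804, 2188 and 1747 in KO samples, against 5039, 2681 and 4409 in WT samples, and was 2.11-fold lower (log2 fold change -1.04, SE 0.23, adjusted p = 0.00201). For both genes the KO samples all lay below the WT samples. POLR2E was the exception, with 6404, 7564 and 7895 in KO samples, against 9354, 8178 and 5627 in WT samples, and a log2 fold change of -0.06 (95% interval -0.52 to 0.41) whose sign turned under upper-quartile and library total scaling. The KO values of POLR2E lay inside the WT range. The 4 subunits called lower kept that call under upper-quartile, library total and TMM scaling. None of the 5 was higher in limma, edgeR or DESeq2.

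Set against each other within a sample, the mean log2 value of the 6 large subunits exceeded that of the 5 shared ones by 2.05, 1.88 and 2.19 in KO samples 1, 2 and 3, against 0.04, 0.74 and -0.13 in WT samples 1, 2 and 3. The lowest KO difference was above the highest WT difference, and the means differed by 1.82 log2 units (2.04 ± 0.16 in KO and 0.22 ± 0.46 in WT, SD, n = 3 each). No test was made of this difference, because the members were chosen with results known. Of all subunit counts, the large subunits took 45.4, 45.2 and 48.4% in KO samples, against 26.0, 31.0 and 23.8% in WT samples, and the shared subunits took 10.4, 11.8 and 10.7% in KO samples, against 20.0, 15.9 and 19.5% in WT samples. POLR2A alone took 13.7, 14.6 and 16.0% in KO samples, against 6.60, 5.75 and 4.14% in WT samples.

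The subunits shared by polymerases I and III, POLR1C and POLR1D, form the assembly platform of these enzymes. POLR1D (ENSG00000186184) had 2287, 2184 and 1872 normalized counts in KO samples, against 4774, 3319 and 6489 in WT samples. The groups were apart, and POLR1D was 2.30-fold lower in KO cells (log2 fold change -1.15, SE 0.23, adjusted p = 0.000906). POLR1C had 3995, 3888 and 3559 in KO samples, against 7113, 4578 and 3903 in WT samples, where WT sample 1 stood above the others and KO sample 1 reached into the WT range (log2 fold change -0.40, 95% interval -0.87 to 0.07). Per kilobase, the ratio of POLR1C to POLR1D was 0.95, 0.968 and 1.03 in KO samples, against 0.81, 0.75 and 0.327 in WT samples.

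Among the other subunits of polymerase I, 2 were lower (background 24.1%) and 2 were not called. POLR1H, the subunit for RNA cleavage (ENSG00000066379), had 3362, 3039 and 2641 normalized counts in KO samples, against 8339.8, 4398 and 7133 in WT samples (log2 fold change -1.09, SE 0.23, adjusted p = 0.00149). POLR1F, a subunit of the stalk (ENSG00000105849), had 1610.3, 1483 and 1637 in KO samples, against 1953, 2944 and 2889 in WT samples (log2 fold change -0.70, SE 0.20, adjusted p = 0.0124). In both genes the KO and WT samples were apart, and the call of POLR1F was lost under library total scaling (adjusted p = 0.171). POLR1E and POLR1G, which form a heterodimer related to the general factor TFIIF, averaged 4976 ± 351 in KO and 5149.8 ± 1192 in WT, and 1997 ± 450.2 in KO and 1738 ± 318 in WT (SD, n = 3 each), with log2 fold changes of -0.03 and 0.19.

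Of the 5 small subunits built only into polymerase II, whose median transcript length was 937 nt, 4 were lower (background 24.1% of all genes tested and 64.1% of protein-coding genes with a transcript under 1000 nt). POLR2J, which pairs with POLR2C in the assembly platform (GRCh38 chromosome 7, 102473128 to 102478922, minus strand, ENSG00000005075), had 723, 749 and 558 normalized counts in KO samples, against 3119.7, 1998 and 3343 in WT samples, and was 4.17-fold lower (log2 fold change -2.03, SE 0.22, adjusted p = 3.07e-06). POLR2I, a zinc-ribbon subunit (ENSG00000105258), had 696, 883 and 617 in KO samples, against 2975, 1896 and 2514 in WT samples, and was 3.36-fold lower (log2 fold change -1.74, SE 0.22, adjusted p = 1.14e-05). In both genes the WT samples were several times as high as the KO samples, with WT sample 2 the lowest of its group. POLR2G, a subunit of the stalk (ENSG00000168002), had 3179, 2691 and 2769.8 in KO samples, against 7739.9, 5557 and 5792 in WT samples, and was 2.21-fold lower (log2 fold change -1.13, SE 0.20, adjusted p = 0.00035). POLR2C (ENSG00000102978) had 4830.1, 4682 and 4636 in KO samples, against 7381, 7388 and 5583 in WT samples (log2 fold change -0.51, SE 0.20, adjusted p = 0.0491). The groups of POLR2C did not overlap, but its call was lost in several alternatives, among them upper-quartile scaling (adjusted p = 0.142) and the omission of KO sample 1 (0.135), 2 (0.168) or 3 (0.173).

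The partners of these subunits changed less than they did. POLR2D, which pairs with POLR2G in the stalk, averaged 4151 ± 43.6 normalized counts in KO and 5569 ± 1821 in WT (SD, n = 3 each, log2 fold change -0.37, 95% interval -0.85 to 0.10). Per kilobase, the ratio of POLR2D to POLR2G was 0.207, 0.24 and 0.235 in KO samples, against 0.0829, 0.142 and 0.206 in WT samples. The ratio of POLR2C to POLR2J was 3.55, 3.32 and 4.41 in KO samples, against 1.26, 1.96 and 0.887 in WT samples. Each KO ratio was above each WT ratio in both pairs, narrowly so for POLR2D over POLR2G. In the POLR2D transcript, 4.09% of the stretches of 150 bases, the read length, also occur in RPS26P19, a pseudogene inside POLR2D.

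Polymerase III had 3 of its other subunits lower (background 24.1%), all of them in the heterotrimer that acts in initiation. POLR3G and POLR3GL are alternative subunits of that heterotrimer. POLR3G (ENSG00000113356) had 942, 836 and 961 normalized counts in KO samples, against 1411, 2091 and 2253 in WT samples (log2 fold change -1.04, SE 0.21, adjusted p = 0.000961). POLR3GL (ENSG00000121851) had 256, 314 and 288 in KO samples, against 426, 555 and 552 in WT samples (log2 fold change -0.83, SE 0.22, adjusted p = 0.00585). Both alternatives were lower in every KO sample than in any WT sample, and their ratio per kilobase, POLR3G over POLR3GL, was 1.32, 0.953 and 1.19 in KO samples, against 1.19, 1.35 and 1.46 in WT samples, which overlapped. POLR3F (ENSG00000132664) had 544, 540.4 and 580.3 in KO samples, against 655, 1068 and 884 in WT samples (log2 fold change -0.62, SE 0.21, adjusted p = 0.029). Its groups were apart, though its call was lost under library total scaling (adjusted p = 0.304) and without KO sample 2 (0.105), and the calls of POLR3F and POLR3GL were lost with the trend on coding length removed. POLR3C, the remaining subunit of the heterotrimer, averaged 2588 ± 55.8 in KO and 3262 ± 201 in WT (SD, n = 3 each), and its log2 fold change of -0.33 (95% interval -0.72 to 0.06) did not pass.

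POLR3K, POLR3D and POLR3E, also of polymerase III, were not called. POLR3K, for RNA cleavage and termination, averaged 2639 ± 125 normalized counts in KO and 3575 ± 878 in WT (SD, n = 3 each), with a log2 fold change of -0.41 (adjusted p = 0.121). On the recovered reads, edgeR and DESeq2 called POLR3K lower (adjusted p = 0.0886 and 0.0887). POLR3D and POLR3E, which form a heterodimer related to TFIIF, had log2 fold changes of -0.23 and 0.23. Their mean levels were 2068 ± 157 in KO and 2463 ± 506 in WT for POLR3D, and 6266 ± 470.4 in KO and 5334 ± 349 in WT for POLR3E (SD, n = 3 each).

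POLR2J has near-identical copies on the same chromosome. In limma, 3 of the 4 copy rows were higher in KO cells (background 24.1% of all genes tested), while POLR2J was lower (background 24.1%). The copy rows share sequence, as given below, so they are not separate observations. The 30 coding bases below were picked as the window of POLR2J with the fewest differences from both copies, at least 1 being required. Their closeness follows from that choice and does not stand for the whole transcripts. They were read from GRCh38 on the minus strand, and the capital marks the base at which POLR2J2 differs from POLR2J, while POLR2J3 has no difference there.
POLR2J, chr7:102476232-102476261: taacaaggacaccaaggtacccaaTgcctg
POLR2J2, chr7:102668966-102668995: taacaaggacaccaaggtacccaaGgcctg
POLR2J3, chr7:102569886-102569915: taacaaggacaccaaggtacccaaTgcctg

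The longest identical stretch was 221 nt between the transcripts of POLR2J and POLR2J2, 265 nt between POLR2J and POLR2J3 and 343 nt between POLR2J2 and POLR2J3. Of the 150-base stretches of each transcript, 14.7% of those in POLR2J, 93.6% in POLR2J2, 100% in POLR2J3, 91.3% in the second POLR2J3 row, which GENCODE annotates as a readthrough transcript, and 27.6% in POLR2J4 also occur in another gene. Apart from POLR2D (4.09%) and POLR3GL (2.43%), all other members had 0% such stretches. The sources used here do not say how reads that match several genes were counted, so the values of the copies are uncertain. A gene on the opposite strand overlaps 25 of the 34 members, and reads of both strands cannot be told apart where the counting ignored strand, which the sources used here do not state. The spans of some members also overlap a gene on the same strand, among them POLR2C, POLR3GL, POLR2J2 and both POLR2J3 rows. Strand cannot separate reads from such shared stretches.

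POLR2J3 (ENSG00000285437) had 893, 1362 and 1020.3 normalized counts in KO samples 1, 2 and 3, against 276, 308 and 328 in WT samples 1, 2 and 3, and was 3.59-fold higher (log2 fold change 1.82, SE 0.21, adjusted p = 6.39e-06). POLR2J2 (ENSG00000228049) had 346, 396 and 367 in KO samples, against 137, 129 and 107 in WT samples, and was 2.98-fold higher (log2 fold change 1.57, SE 0.23, adjusted p = 5.91e-05). In both copies the lowest KO sample was well above the highest WT sample. The readthrough row of POLR2J3 (ENSG00000168255) had 266, 317 and 294 in KO samples, against 232, 123 and 250.5 in WT samples (log2 fold change 0.59, adjusted p = 0.0894), a call that edgeR (adjusted p = 0.144) and DESeq2 (0.12) did not make. POLR2J4, which the table lists as a noncoding RNA, averaged 45.2 ± 9.41 in KO and 29.3 ± 11.1 in WT (SD, n = 3 each) and was not called. Summed over the 5 rows, the family had 2274, 2878 and 2274 normalized counts in KO samples, against 3797, 2576 and 4066 in WT samples, and these values overlapped. POLR2J made up 31.8, 26.0 and 24.5% of that sum in KO samples, against 82.2, 77.6 and 82.2% in WT samples.

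**Figure D3:**
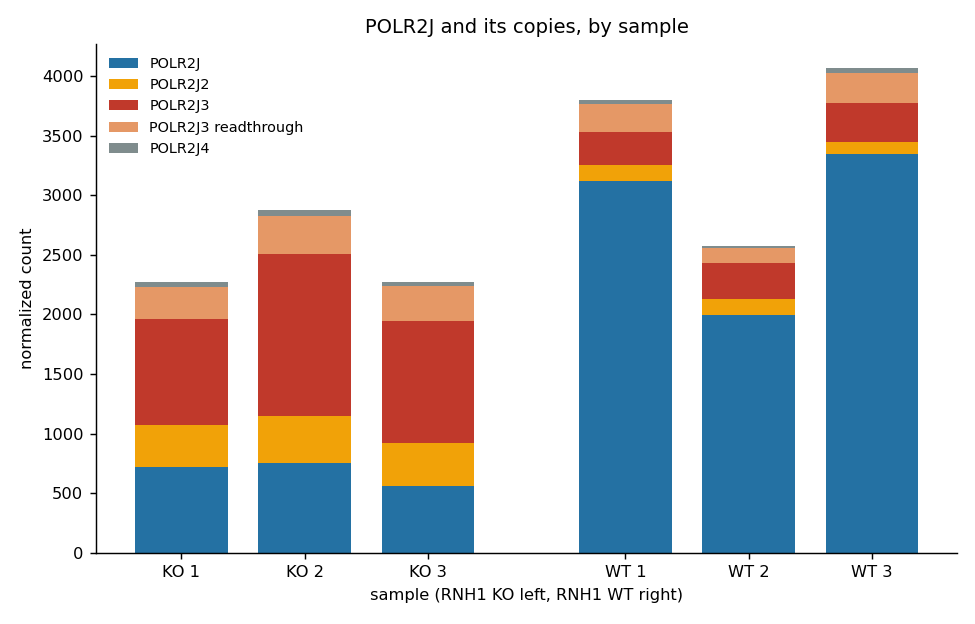
Normalized counts of POLR2J and its copies, stacked, in 3 RNH1 KO samples (left) and 3 RNH1 WT samples (right). The POLR2J part of the bars is 558 to 749 in KO samples and 1998 to 3343 in WT samples, while the POLR2J3 part is 893 to 1362 in KO samples and 276 to 328 in WT samples.

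The members were also ordered by length. With the copies left out, all 7 members with a transcript under 1000 nt were lower (background 64.1% of the 782 protein-coding genes of that length), with a median log2 fold change of -1.69 beside -0.93 for those genes. Of 6 members with at least 1000 and under 2000 nt, 3 were lower (background 37.2%), and of 9 members with at least 2000 and under 4000 nt, 4 were lower (background 23.3%). Of 8 members with 4000 nt or more, 0 were lower in limma (background 16%) and 2 were higher (background 34.8%). None of the 8 was lower in edgeR or DESeq2, or in limma at an unadjusted p under 0.05.

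The length of the coding sequence ordered them further. Members with a coding sequence under 500 nt were lower in 8 of 10 cases (background 70.3% of 1066 genes), with POLR2D and POLR3K not called. With at least 500 and under 1000 nt, 5 of 7 were lower (background 44.6%), with POLR2E among those not called, and with at least 1000 and under 2000 nt, 1 of 6 was lower (background 19.6%). With 2000 nt or more, 2 of 7 were higher (background 45.1%) and 0 were lower (background 7.21%) in limma. None of the 7 was lower in edgeR or DESeq2, or in limma at an unadjusted p under 0.05. Under 500 nt the count was near its background, from 500 nt to under 1000 nt it was above it, and at 2000 nt or more fewer members were higher than among other genes, each over few members. Over the 30 members, the log2 fold change correlated with log2 coding length (r = 0.86, rho = 0.86), with log2 transcript length (r = 0.79, rho = 0.81) and with the number of exons (r = 0.72, rho = 0.70), while r was 0.04 and rho -0.05 for GC content. Over 11866 protein-coding genes the correlation with coding length was 0.45 (rho = 0.52). These are descriptions across genes of the same 6 libraries, not of independent samples.

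**Figure D4:**
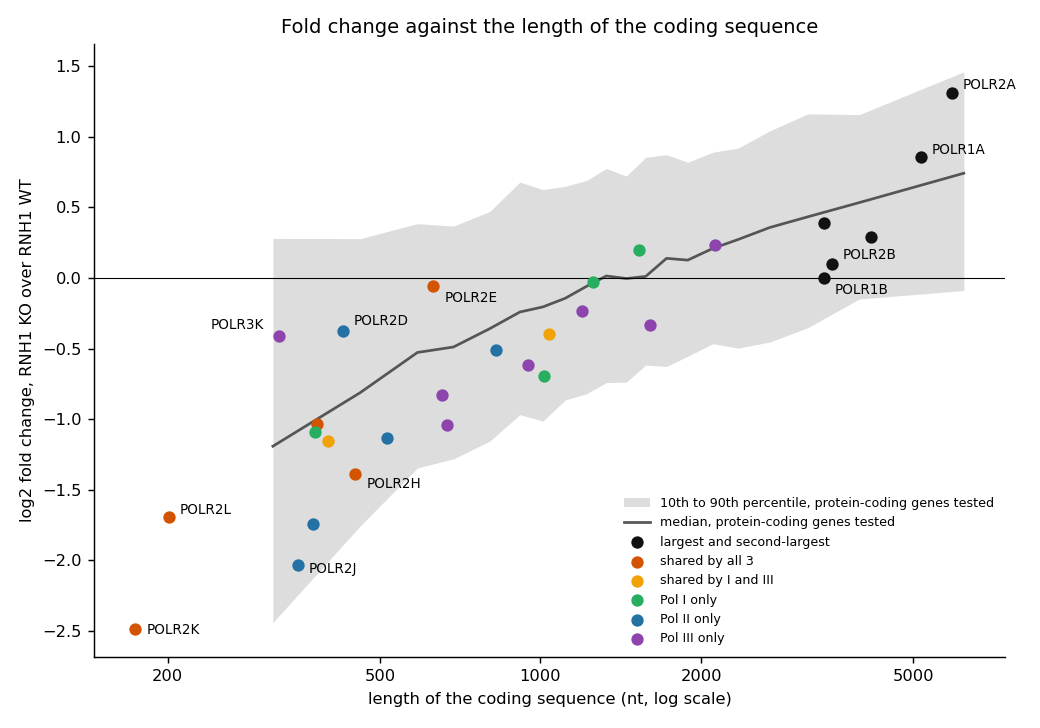
Log2 fold change of RNH1 KO over RNH1 WT against the length of the coding sequence (log axis) for 29 members other than the POLR2J copies (colored by class), over the median and the 10th to 90th percentile of all protein-coding genes tested, in 20 bins of coding length. POLR2K and POLR2L lie left of the plotted median length of the first bin, and POLR2J lies near the lower edge of the band, which falls with coding length toward the left as the members do.

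Some members stood off this trend. When the trend of the log2 values on coding length was removed within each sample, an alternative chosen after seeing the data, the difference between large and shared subunits shrank to 0.14 log2 units, beside 1.82 without it, and the median of the large subunits turned to -0.14. The corrected count was 9 members lower (background 20.2%) and 8 higher (background 20.6%) of 33 with a coding length. Both counts were near the background, so members off the trend were about as common as among other genes. POLR2A remained higher (corrected log2 fold change 0.63, adjusted p = 0.0267), whereas POLR1A did not pass (0.23, adjusted p = 0.288) and POLR1B was called lower (-0.44, adjusted p = 0.0445). Of the shared subunits, POLR2K (-0.74, adjusted p = 0.00813) and POLR2H (-0.53, adjusted p = 0.0205) remained lower. POLR2L (-0.08) and POLR2F (-0.02) did not pass, and POLR2E was higher (0.48, adjusted p = 0.0955). POLR1D (-0.18), POLR1H (-0.07), POLR2C (-0.15, adjusted p = 0.508), POLR3F (-0.35, adjusted p = 0.184) and POLR3GL (-0.32, adjusted p = 0.229) lost their calls as well, and POLR3C was called lower (-0.38, adjusted p = 0.0724).

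Within polymerase II, POLR2J (-0.94, adjusted p = 0.00154), POLR2I (-0.71, adjusted p = 0.013) and POLR2G (-0.41, adjusted p = 0.0992) were lower also with the trend removed, and within polymerase III so was POLR3G (-0.55, adjusted p = 0.0463). POLR2D (0.54, adjusted p = 0.0512) and POLR3K (0.76, adjusted p = 0.0162) became higher. POLR2D has a short coding sequence (426 nt) in a long transcript (5038 nt). A correction on transcript length in place of coding length left the difference between large and shared subunits at 1.42 log2 units, with POLR2A (1.10, adjusted p = 0.00235) and POLR1A (0.40, adjusted p = 0.0826) both higher. With this correction POLR2D was called lower (-0.50, adjusted p = 0.085), the opposite of its call with the trend on coding length removed. POLR3C (-0.39, adjusted p = 0.0557) and POLR3D (-0.38, adjusted p = 0.0816) were called lower as well. With the replicate block added, POLR1A lost its call (adjusted p = 0.218), so the size of the remaining difference depended on the length used.

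**Figure D5:**
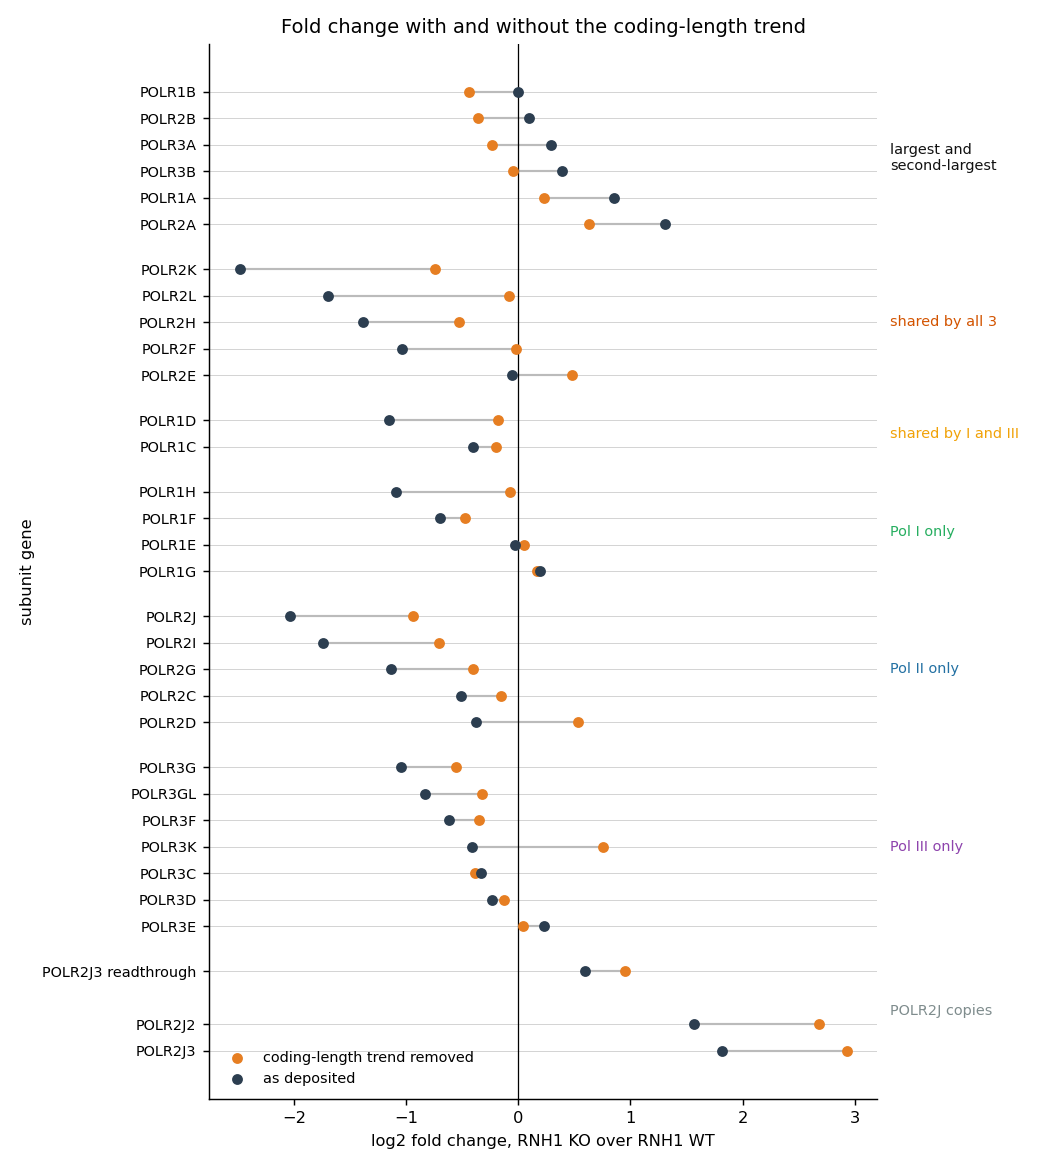
Log2 fold change of RNH1 KO over RNH1 WT for 32 members with a coding length, as fitted on the deposited values (dark points) and with the trend on coding length removed in each sample (orange points). POLR2A moves to 0.63, against 1.31 on the deposited values, and POLR2L to -0.08, against -1.69.

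Per kilobase of transcript, the order of the subunits within an enzyme differed between genotypes. This difference follows from the fold changes given above and is not a separate result. The order rests on the canonical transcript length of each gene, and the trend on coding length was not removed from it. In polymerase II, POLR2A ranked 2 of 12 in KO cells (2791 normalized counts per kb), after POLR2G (3641), and 11 of 12 in WT cells (1153), where POLR2G (8044), POLR2L (7193) and POLR2I (5556) were the highest. The ratio of POLR2A to POLR2L per kilobase was 1.46, 1.05 and 1.37 in KO samples, against 0.165, 0.224 and 0.11 in WT samples, and each KO ratio was far above each WT ratio. In polymerase I, POLR1H (3541 in KO and 7783 in WT) was the highest in both genotypes. Among the 17 polymerase III genes of the symbol rule, POLR1D (3051 per kb in KO and 7014 in WT) and POLR1C (2991 in KO and 4077 in WT) led in KO cells. Of these genes, POLR3GL (243) was the lowest in KO cells and POLR3B (319.7) the lowest in WT cells. CRCP, a polymerase III subunit outside the symbol rule, was not ranked, and per kilobase it lay below every ranked gene in both genotypes. It averaged 429 normalized counts in KO and 481 in WT, over a transcript of 2774 nt. The SD of the log2 level per kilobase over the 12 subunits of polymerase II was 0.94, 1.01 and 1.09 in KO samples, against 1.09, 0.92 and 0.96 in WT samples, so the spread of levels overlapped between genotypes while their order differed.

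The factors that work with these enzymes also moved in both directions. Their counts stand beside a background of 24.1% of all genes tested called lower and 24.1% called higher. This background is not matched for length, here and in the next paragraph. Of protein-coding genes, 64.1% were lower with a transcript under 1000 nt and 16% with 4000 nt or more. A count above or below 24.1% is therefore not set against genes of like length. Of 17 general transcription factor genes of polymerase II, 10 were lower, above that share of all genes, and 3 higher, near it (median log2 fold change -0.63). GTF2A2 (-2.18), a small subunit of TFIIA, and GTF2H5 (-1.59) and CDK7 (-1.20) of TFIIH, the factor that opens promoter DNA, were lower, and GTF2H4 (1.09), also of TFIIH and with few reads, was higher. Of 15 TFIID subunits, 5 were lower, led by TAF13 (-1.84), TAF9 (-1.38) and TAF9B (-1.16), and 3 were higher, led by TAF4 (1.04), with a median of -0.16, and both counts were near the background. Of 27 elongation factors of polymerase II, 4 were lower, below the background, and 8 higher, near it (median 0.21). ELL3 (-2.42) was called lower on few reads, with 2.77, 2.04 and 6.03 normalized counts in KO samples, against 49.0, 8.95 and 23.8 in WT samples, and reached the minimum mean of 10 only through the WT samples. ELOC (-2.44) and ELOB (-1.56), which form the Elongin complex with ELOA, were lower, and SUPT6H (1.22), a histone chaperone that travels with polymerase II, was higher.

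For polymerase I, 2 of 8 initiation and termination factors were higher (background 24.1%), UBTF (0.69), which binds the ribosomal DNA promoter, and TAF1C (0.54) of the promoter selectivity factor. In limma 0 were lower (background 24.1%), with a median of 0.00. None of the 8 was lower in edgeR (background 25.8%) or DESeq2 (background 25.3%), or in limma at an unadjusted p under 0.05. Of 17 initiation factors and regulators of polymerase III, 5 were lower, among them GTF3A (-0.92), the 5S gene factor TFIIIA, BRF2 (-0.90) and GTF3C6 (-0.85). Another 3 were higher, with both counts near the background of 24.1% and a median of -0.03. SNAPC5 (-0.84), part of the complex that binds small nuclear RNA promoters, was also among the 5 lower genes. Of 16 assembly factors, which join the subunits in the cytoplasm and bring the enzymes into the nucleus, 7 were lower (background 24.1%) and 1 was higher (background 24.1%), with a median of -0.24. UXT (-1.33) and PFDN6 (-1.14), prefoldin-like proteins, and GPN3 (-0.89), a GTPase, were lower, and RPAP1 (0.82) was higher. Outside the symbol rule, POLR2M was lower (-1.07), and CRCP, a polymerase III subunit, (-0.13) and POLRMT, the mitochondrial RNA polymerase, (0.52) were not called.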

How the data were processed

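The authors made stranded total RNA libraries (TruSeq) from polysome fractions of a 10 to 50% sucrose gradient, and the submitters' processing notes name HISAT2 2.2.1, featureCounts 2.0.1, DESeq2 1.36.0, FastQC 0.11.9 and GRCh38. The deposited signal of each sample is the gene count divided by 1 DESeq2 size factor per sample, here called normalized count. In all 6 columns, 100% of values above 0 came out as whole reads (tolerance 1e-06), which gave recovered reads. The authors also deposited group means and their own DESeq2 comparison, namely log2 fold changes and standard errors, a score and p-values, none of which were used. Of the sample columns 0 were unmapped.

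Genes with a mean of at least 10 were fitted with limma 3.58.1 (R 4.3.3, trend and robust) on log2(value + 1), genotype only, with a Benjamini-Hochberg adjusted p under 0.1. A fold change on this scale is understated for low genes. edgeR 4.0.16 and DESeq2 1.42.0 were run on the recovered reads. Other alternatives were scalings, pseudocount 10, other filters, a replicate block, each sample left out, and lowess corrections (span 0.3) on transcript length and, added after seeing the data, coding length. Lengths and positions are those of canonical transcripts of GENCODE 44. Of the members, 33 were named and 1 is not reported here, with values by sample for large, shared and called members, and of each list of partner genes up to 4 called genes with the largest change. The members and lists were chosen with earlier results of these data known. The limma fit, plain and with a transcript length correction, was first run on simulated counts. These had equal dispersion in both groups and far fewer changed genes than found here. Coding length correction, edgeR and DESeq2 were not part of that run. Python 3.11.15, pandas 2.3.3 and matplotlib 3.10.9 were used. Precision is limited by 3 samples per group.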

Additional observations from a re-analysis of the deposited data

How the results depend on the processing

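Of 33 members, 9 kept their direction and their side of the threshold under all 19 alternatives: POLR2A, POLR2J2 and POLR2J3 higher, and POLR2G, POLR2H, POLR2I, POLR2J, POLR2K and POLR3G lower. No share over all genes tested stands beside this count, so it does not set the subunits apart from other genes. All alternatives used the same counts, so they leave the uncertainty from shared sequence of POLR2J2 and POLR2J3 as it was. Library total scaling gave 2419 genes lower and 6616 higher of all genes tested, and upper-quartile scaling 3239 and 5068, beside 4012 and 4010 with the deposited scaling. With library total scaling 10 members were higher, the median of the large subunits was 0.67 and that of the shared ones -1.06. This scaling turned POLR1E (0.30), POLR2E (0.27) and POLR3D (0.091), none of them called, and upper-quartile scaling turned POLR1E (0.11) and POLR2E (0.084). POLR1B, at 0.00, turned to -0.014 with TMM scaling, -0.017 with edgeR and -0.0031 with DESeq2. Transcript length correction put the large minus shared difference at 1.42, with POLR1B at -0.27 and POLR1E at 0.14. It called POLR2D, POLR3C and POLR3D lower, and POLR2C lost its call (adjusted p = 0.143). Coding length correction, chosen after seeing the data and run on 11968 genes, called 4888 genes, 9 members lower and 8 higher, with the large median at -0.14, the shared median at -0.081 and their mean difference at 0.14. It turned POLR1B (-0.44), POLR2B (-0.36), POLR3A (-0.24), POLR3B (-0.049), POLR1E (0.048), POLR2D (0.54), POLR2E (0.48) and POLR3K (0.76). Leaving out 1 sample gave -0.044 to 0.078 for POLR1B, -0.19 to 0.14 for POLR1E and -0.27 to 0.10 for POLR2E. It brought POLR2D (adjusted p = 0.0406) and POLR3C (0.0861) past the threshold without WT sample 1, POLR3B (0.0225) and POLR3K (0.063) without WT sample 2, and POLR1C (0.0568) and POLR3K (0.0685) without WT sample 3. The call of the POLR2J3 readthrough row was lost without any 1 KO sample (0.127 to 0.241) and without WT sample 2 (0.285). The cause of these changes was not tested. The deviations of same-numbered samples from their group means correlated at -0.16, -0.19 and -0.27. The values were 0.24 for KO sample 2 with WT sample 1, 0.27 for KO sample 3 with WT sample 2 and 0.28 for KO sample 1 with WT sample 3. Deviations within a group of 3 depend on each other, so these values cannot decide whether samples were paired. With the replicate block 3310 genes were lower and 3243 higher, with 13 members lower and 4 higher (POLR2C, adjusted p = 0.167, and the POLR2J3 readthrough row, 0.141, lost their calls). With the replicate block and transcript length correction together the large minus shared difference was 1.42, POLR1B -0.27 and POLR1E 0.14, and the calls of POLR1A (0.40, adjusted p = 0.218), POLR2C (0.318), POLR3F (0.123) and POLR3GL (0.129) were lost. Values of few reads, as for POLR2J4, limit what these depths can show.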
